A study of Mus musculus with 48 samples.

Results

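Inhibitory neuron genes, 10 of the 18883 genes that had a symbol on the arrays, were followed through frontal cortex and hypothalamus of sleep-deprived mice. They were Gad1, Gad2, Slc32a1, Sst, Vip, Cck, Tac1, Pvalb, Lhx6 and Nos1, which encodes the neuronal nitric oxide synthase nNOS. Every probe whose RefSeq accession belongs to 1 of these genes was taken, which gave 12 of 41174 probes. This rule for the probes uses no measured value, but the genes were chosen with earlier results of these data known. Gad1 and Gad2 had 2 probes each, and the brighter probe over all arrays is given first.

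The series held 48 one-colour Agilent arrays from 24 adult mice, 8 of each of 3 genotypes, with frontal cortex and hypothalamus taken from each mouse. Per3 5/5 mice (line Boxhill) and Per3 4/4 mice (line Coach) were homozygous knock-ins in which exon 18 of the clock gene Per3 was replaced by the human sequence with 5 or 4 copies of a tandem repeat, and WT mice carried the mouse gene. The lines were made in C57BL/6 embryonic stem cells, the selection cassette was removed by a ubiquitous Cre that was later bred out, and the exchange was present in every cell of the animal. All mice of all groups had been kept awake for 12 h from light onset, so the arrays held no rested animals and no effect of sleep loss could be measured. The sex of the array mice was not given in the sources used here. A mouse gave 1 array of each tissue, and the separate mice were the replicates.

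Inhibitory neurons make GABA from glutamate with the glutamic acid decarboxylases GAD67 (Gad1) and GAD65 (Gad2), and load it into synaptic vesicles with the transporter VGAT (Slc32a1). In cortex they fall into classes known by parvalbumin, somatostatin or vasoactive intestinal peptide, and cholecystokinin marks a further class as well as many excitatory cells. Lhx6 is a transcription factor of the interneurons born in the medial ganglionic eminence, which become parvalbumin and somatostatin cells. A sparse group of cortical somatostatin cells carries nNOS together with the substance P receptor Tacr1 and is known for being active during sleep, and in hypothalamus nNOS is found in many neurons of several nuclei. VIP is a transmitter of the circadian pacemaker in the suprachiasmatic nucleus.

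The promoters of the peptide genes are shown because PER proteins act on CLOCK and BMAL1, which bind the E-box CACGTG, and because the cAMP response element TGACGTCA and its core TGACG are textbook elements of peptide genes. The 250 bases before the start site of all 32851 mouse promoters of the RefSeq table (GRCm38.p6) were searched on both strands. TGACG was found in 17.8% of all promoters and at 6 of the 10 genes (Sst, Vip, Cck, Tac1, Gad2 and Nos1). The full element TGACGTCA, which contains the core, was in 1.55% of all promoters and among the 10 genes at Sst alone. CACGTG was in 6.02% of all promoters and among the 10 genes at Cck and Tac1. Windows of 30 bases follow, 5′ to 3′ on the strand of the gene, with the matched letters in capitals (CGTCA is TGACG read on the other strand). They lie at chr16:23890874-23890903 (minus strand) for Sst, chr10:5639127-5639156 (plus strand) for Vip, chr9:121495734-121495763 (minus strand) for Cck and chr6:7554997-7555026 (plus strand) for Tac1.
Sst: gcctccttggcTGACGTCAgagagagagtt
Vip: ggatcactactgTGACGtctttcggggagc
Cck: gagCACGTGtcctgctggactgCGTCAgca
Tac1: tgtCACGTGgctctacaggctCGTCAcgcc
The Sst element lay 48 bases and the Vip core 79 bases upstream of the start. A match says that these letters are there and nothing about which protein binds them. TATAAA, a core promoter element held by 12.4% of all promoters, was found among the 10 genes at Gad1 and Vip.

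A level is given as log2 of the processed signal minus log2 of the 75th percentile of its array, so 0 is the brightness of the 75th percentile probe and each unit is a doubling. Levels of different probes are not comparable and none is set against another. All 12 probes were well above background on all 48 arrays and no spot was saturated. A probe counted as well above background where a share of at least 0.5 of its spots was flagged so. For Nos1 and Sst, with 10 spots each, some spots of an array could thus fall short. The 75th percentile itself ran from 307 to 1884 units and was higher in WT (1266 ± 180 in frontal cortex, SD, n = 8) than in Per3 5/5 (908 ± 139) or Per3 4/4 (745 ± 267), and arrays had been scanned on 3 days that held the genotypes unequally, with no WT mouse on day 1 and no Per3 5/5 mouse on day 2. Marker genes followed the tissue labels: the summed level of 8 hypothalamic markers such as Hcrt, Pmch, Avp and Oxt was 245 to 452 times the array's 75th percentile in hypothalamus and 0.99 to 5.09 in frontal cortex, where Sim1 was not above background. The sum of 6 frontal cortex markers was 10.4 to 20.8 in frontal cortex and 0.34 to 0.66 in hypothalamus. The sum of 5 pituitary markers was uneven. It reached 903 in hypothalamus of WT replicate 8 (group median 26.1) and 10.6 in frontal cortex of Per3 5/5 replicate 5 (group median 1.12). The part of such tissue in the levels of the members was not tested. A bulk sample cannot tell fewer cells of a type from less RNA per cell, and this holds for every value below.

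**Figure D1:**
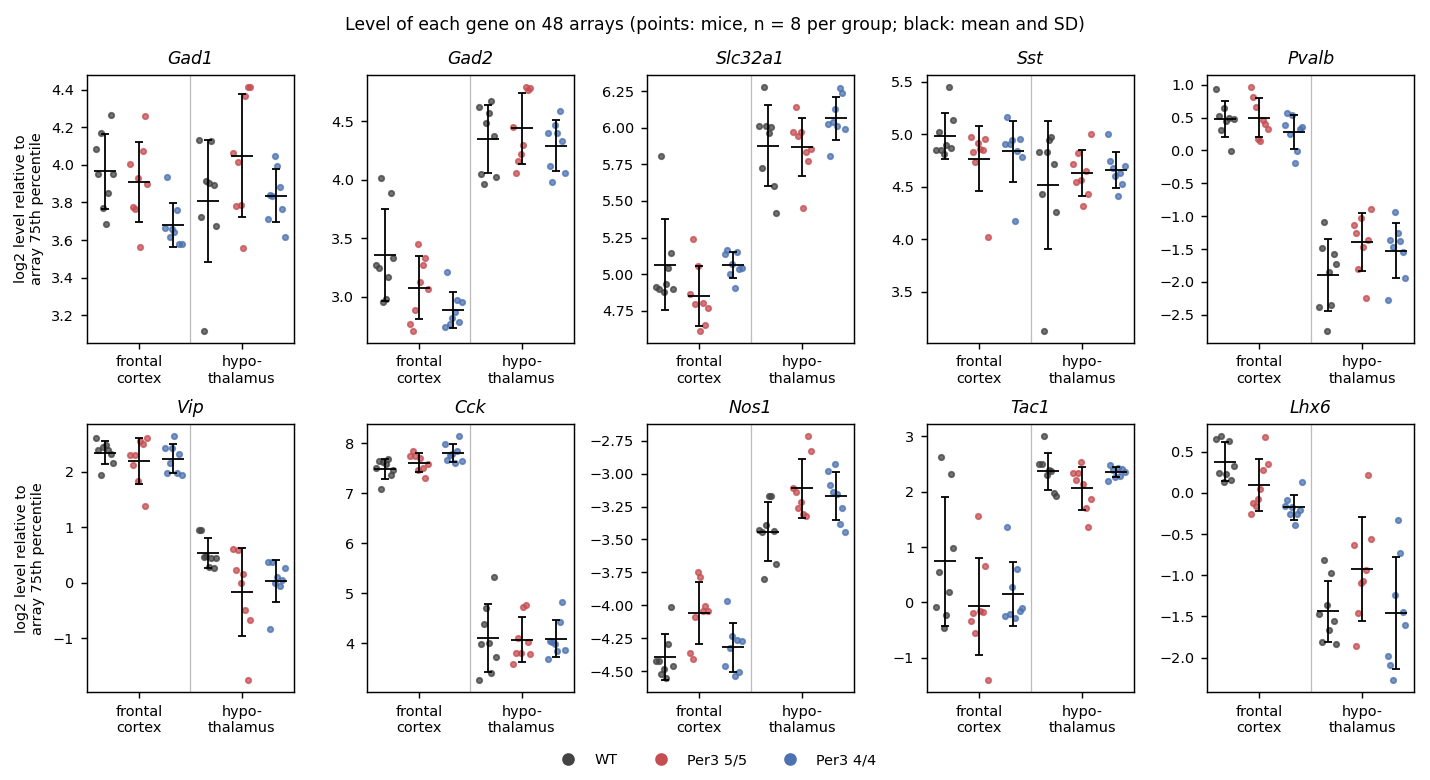
Levels of the 10 genes in the 48 samples. Each point is 1 mouse, the vertical axis is log2 signal relative to the 75th percentile of the array, bars are the mean and SD of 8 mice, and the panels differ in scale. The hypothalamic points of Cck, Vip and Pvalb lie below all cortical points of the same genotype, and those of Nos1 lie above them.

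The tissue separated the genes into those higher in hypothalamus (Gad2, Slc32a1, Tac1, Nos1) and those lower there (Cck, Vip, Pvalb, Lhx6), with Gad1 not called and Sst lower in WT alone among the calls. Each mouse served as its own control. Of the 12 probes, limma called 10 in WT, 9 in Per3 5/5 and 9 in Per3 4/4 at a Benjamini-Hochberg adjusted p under 0.05 over all 31228 tested probes, 5 of them higher in hypothalamus in each genotype. Of all probes tested, 59.5% were called in WT, 58.6% in Per3 5/5 and 59% in Per3 4/4, so a call as such was common. Higher calls made up 31.8%, 29.4% and 31.1% of all probes in this order, and lower calls 27.7%, 29.1% and 27.9%. The median difference of the 12 probes was -0.16 in WT, 0.17 in Per3 5/5 and 0.20 in Per3 4/4, beside 0.03, -0.02 and 0.02 over all probes. Without WT replicate 3 the WT median was 0.0033 and 9 probes were called in WT. With quantile normalization the medians were -0.07, 0.28 and 0.32.

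Gad1 was not called between the tissues. In WT its level was 3.97 ± 0.20 in frontal cortex and 3.81 ± 0.32 in hypothalamus (SD, n = 8), a difference of -0.16 ± 0.10 (SE, adjusted p = 0.20, 95% interval -0.37 to 0.06), with 4 of 8 mice higher in hypothalamus. In the knock-ins the difference was 0.14 (Per3 5/5) and 0.16 (Per3 4/4), again within the spread. The second Gad1 probe gave -0.17 in WT, 0.19 in Per3 5/5 and 0.25 in Per3 4/4, none of them called. Without WT replicate 3 the WT differences of the 2 probes were -0.03 and 0.035. With quantile normalization Gad1 was called in Per3 4/4 by both probes (0.28, adjusted p = 0.035, and 0.36, adjusted p = 0.043) and in Per3 5/5 by the first (0.26, adjusted p = 0.0498).

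Gad2, whose product makes GABA at synaptic terminals, was higher in hypothalamus. Its WT levels were 2.96, 3.26 and 4.01 (lowest, median and highest mouse) in frontal cortex and 3.97, 4.43 and 4.68 in hypothalamus. All but 1 of the hypothalamic values lay above every cortical value, and 7 of 8 WT mice were higher in hypothalamus. The difference was 0.99 ± 0.14 in WT (1.99-fold, adjusted p = 2.2e-06), 1.37 in Per3 5/5 (2.58-fold) and 1.40 in Per3 4/4 (2.65-fold), and the groups did not overlap in either knock-in. The second Gad2 probe gave 1.01, 1.51 and 1.39 in the same order. The vesicular transporter Slc32a1 was higher in hypothalamus in all 24 mice, by 0.81 ± 0.076 in WT (1.76-fold, adjusted p = 1.4e-09), 1.02 in Per3 5/5 and nearly as much in Per3 4/4 (mean 6.06 against 5.06). Its cortical groups had means of 5.07 in WT, 4.85 in Per3 5/5 and 5.06 in Per3 4/4.

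The peptide genes went different ways. Cck had the widest gap of the 10 genes: WT mice ran from 7.08 over a median of 7.54 to 7.68 in frontal cortex, and their hypothalamic mean was 4.10 ± 0.68. No hypothalamic value reached a cortical one in any genotype, and the fall was 10.4-fold in WT, 11.6-fold in Per3 5/5 and 13.1-fold in Per3 4/4 (log2 difference in WT -3.38 ± 0.19, adjusted p = 1.6e-13). Vip was also lower in hypothalamus in 24 of 24 mice, 3.50-fold in WT, 5.17-fold in Per3 5/5 and 4.61-fold in Per3 4/4, with no overlap. Sst, the most even of the peptides, was lower in hypothalamus by 0.47 ± 0.16 in WT (adjusted p = 0.014), while its differences of -0.14 in Per3 5/5 (adjusted p = 0.48) and -0.18 in Per3 4/4 (adjusted p = 0.36) lay within the spread. The Sst call was the least steady of these, and its adjusted p ran from 0.0092 to 0.21 over 9 alternatives. Without WT replicate 3 the WT difference was -0.29 (adjusted p = 0.076).

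Tac1, which encodes substance P and neurokinin A, was higher in hypothalamus by 1.63 ± 0.31 in WT (3.10-fold, adjusted p = 6.5e-05), 2.14 in Per3 5/5 and 2.19 in Per3 4/4. In 23 of 24 mice the hypothalamic sample was the higher, and the exception was a WT mouse. Its cortical levels were very uneven: -0.46, 0.37 and 2.63 (lowest, median and highest) in WT, -1.41, -0.19 and 1.57 in Per3 5/5 and -0.28, -0.12 and 1.37 in Per3 4/4. The pooled SD of Tac1 between mice in frontal cortex, 0.90, was above that of 97.1% of tested probes, where the median probe had 0.25.

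Pvalb, a calcium buffer of fast-spiking cells, was lower in hypothalamus in every mouse, 5.20-fold in WT, 3.72-fold in Per3 5/5 and 3.49-fold in Per3 4/4, with no overlap between tissues. Lhx6 was lower by 1.82 ± 0.18 in WT (3.52-fold, adjusted p = 5.3e-09), 1.02 in Per3 5/5 and 1.29 in Per3 4/4. In both knock-ins 1 hypothalamic Lhx6 value reached the cortical range.

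Nos1 was higher in hypothalamus in 24 of 24 mice and the tissues did not overlap in any genotype. The difference was 0.95 ± 0.10 in WT (1.94-fold, adjusted p = 1.5e-08), 0.94 in Per3 5/5 and 1.15 in Per3 4/4. The probe was dim, with a processed signal of 16.9, 54.9 and 85.1 units (lowest, median and highest array) in frontal cortex and 29.5, 120 and 210 units in hypothalamus, and it was spotted 10 times on each array. The SD between its spots within an array had a median of 0.17 in frontal cortex and 0.11 in hypothalamus, against 0.20 and 0.21 between mice of a group. With another background correction (normexp, which adds an offset) the Nos1 difference shrank to 0.57 in WT, 0.40 in Per3 5/5 and 0.35 in Per3 4/4 and was still called in all 3 genotypes.

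**Figure D2:**
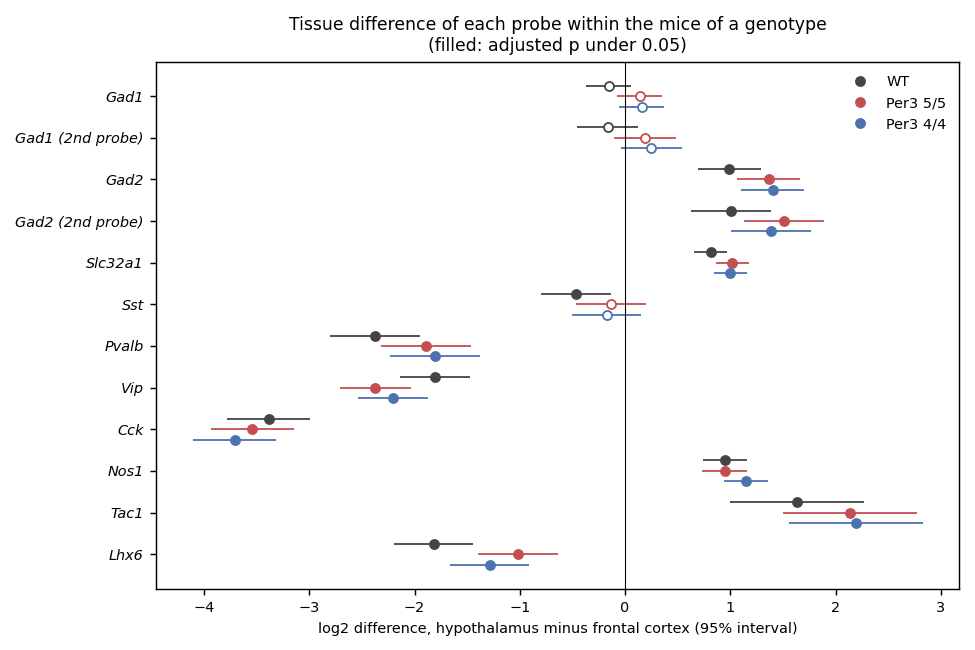
Hypothalamus minus frontal cortex for each of the 12 probes in the 3 genotypes, as log2 difference with its 95% interval from the limma fit with the mouse as a block, filled where called. Cck lies farthest below 0, from -3.38 in WT to -3.71 in Per3 4/4, and Tac1 farthest above it, from 1.63 to 2.19.

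Between genotypes, differences were small beside these. In frontal cortex 4 of the 12 probes were called in Per3 4/4 mice against WT by limma: Lhx6, Gad1 and Gad2 were lower and Cck was higher, while over all probes 22.5% were called (13.4% higher and 9.14% lower). The median difference of the 12 probes was -0.24, beside 0.02 over all probes. Both comparisons with WT use the same 8 WT mice.

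Lhx6 had the smallest adjusted p of the members. Its levels were 0.13, 0.28 and 0.69 (lowest, median and highest) in WT and -0.39, -0.19 and 0.13 in Per3 4/4, and 7 of 8 Per3 4/4 mice lay below all WT mice. The difference was -0.56 ± 0.12 (SE, 1.47-fold lower, adjusted p = 0.0037). Blocked for scan day it was -0.45 ± 0.12 (adjusted p = 0.028, where 7.72% of all probes were called), the only member call of any genotype comparison in that fit. On the 1 scan day that held most mice of both genotypes it was -0.67 (adjusted p = 0.071). In Per3 5/5 mice the cortical Lhx6 level was -0.25, -0.01 and 0.67, between both other groups, and -0.29 ± 0.12 from WT (adjusted p = 0.11).

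The Per3 5/5 mean of Lhx6 differed between days, -0.15 on day 1 and 0.34 on day 3, when WT had 0.37. Across the 24 cortical samples Lhx6 rose with the 75th percentile of the array (Pearson r = 0.68, permutation p = 0.00024, adjusted p = 0.0048; Spearman rho = 0.79, permutation p = 1e-05, adjusted p = 0.0002, over 20 such relations), and r was 0.73 without the 2 samples of most extreme percentile. Within genotype and scan day r was 0.11, so most of the relation lay between those groups. Cortical Cck also passed by both measures, in the other direction (r = -0.60, adjusted p = 0.021, rho = -0.62, adjusted p = 0.013). Cortical Gad1 (rho = 0.56, adjusted p = 0.028) and Gad2 (rho = 0.59, adjusted p = 0.018) passed by Spearman and not by Pearson (adjusted p = 0.098 for both). Within genotype and scan day r was -0.29 for Cck, 0.16 for Gad1 and 0.03 for Gad2. Each level has log2 of this percentile subtracted from it, so level and percentile share a term, and the permutation tests do not allow for that. The part of array brightness in the cortical differences of Lhx6, Cck, Gad1 and Gad2 was not tested.

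Gad2 levels in Per3 4/4 cortex were 2.74, 2.84 and 3.21 against 2.96, 3.26 and 4.01 in WT, with 5 of 8 mice below all WT mice. The difference was -0.47 ± 0.14 (1.38-fold lower, adjusted p = 0.022), and the second Gad2 probe gave -0.28 ± 0.17 (adjusted p = 0.25). For Gad1, WT mice ran from 3.69 over a median of 3.95 to 4.27 and Per3 4/4 mice from 3.58 over 3.65 to 3.93. The Gad1 difference was -0.29 ± 0.093 (1.22-fold lower, adjusted p = 0.030), and its second probe gave the same size with adjusted p = 0.081. Blocked for scan day, the first Gad1 probe had adjusted p = 0.090 and the first Gad2 probe 0.10.

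Cck rose from 7.08, 7.54 and 7.68 in WT to 7.60, 7.77 and 8.13 in Per3 4/4, and 5 of 8 mice lay above all WT mice. The difference was 0.31 ± 0.096 (1.24-fold higher, adjusted p = 0.024). It depended on the scaling: with quantile normalization it was -0.01 (adjusted p = 0.95), with each array centred on its median 0.26 (adjusted p = 0.12), and blocked for scan day 0.27 (adjusted p = 0.11). Slc32a1 differed by less than 0.01 between the same groups (95% interval -0.23 to 0.23), and by 0.10 without WT replicate 3 (adjusted p = 0.38). Pvalb (-0.20), Sst (-0.15), Vip (-0.11), Tac1 (-0.58) and Nos1 (0.08) were not called, and without WT replicate 3 the Tac1 difference was -0.31.

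In Per3 5/5 mice Nos1 was called in both tissues. Cortical Nos1 levels were -4.55, -4.44 and -4.01 in WT and -4.40, -4.04 and -3.75 in Per3 5/5, and 3 of 8 Per3 5/5 mice lay above all WT mice. The difference was 0.34 ± 0.10 (1.26-fold higher, adjusted p = 0.034), the only member call of that comparison in frontal cortex, where 12.4% of all probes were called (8.44% higher and 3.91% lower). The members' median there was -0.21, beside 0.06 over all probes. Tac1 was 0.81 ± 0.43 lower (adjusted p = 0.20), the widest interval of the genes (-1.70 to 0.07), and 0.54 lower without WT replicate 3.

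Hypothalamic Nos1 levels were -3.80, -3.43 and -3.17 in WT, -3.32, -3.18 and -2.72 in Per3 5/5 and -3.44, -3.15 and -2.93 in Per3 4/4. The groups overlapped, with 4 of 8 Per3 5/5 and 5 of 8 Per3 4/4 mice above all WT mice. Nos1 was 0.33 ± 0.11 higher in Per3 5/5 (1.25-fold, adjusted p = 0.036) and 0.27 ± 0.11 higher in Per3 4/4, which missed the threshold (adjusted p = 0.086). Among all probes 18.8% were called in Per3 5/5 (10.3% higher and 8.55% lower) and 15.1% in Per3 4/4 (8.24% higher and 6.81% lower). The median of the 12 members was 0.11 in Per3 5/5 and 0.06 in Per3 4/4, beside 0.03 and 0.02 over all probes, and without WT replicate 3 it was 0.044 and 0.0079.

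These Nos1 calls were close to the threshold. Blocked for scan day the difference was 0.24 (adjusted p = 0.22) in frontal cortex and 0.26 (adjusted p = 0.24) in hypothalamus, where 0.986% and 2.1% of all probes were called. With median centring it was 0.22 (adjusted p = 0.15) and 0.24 (adjusted p = 0.090). The direction was the same in all alternatives, 14 in frontal cortex and 12 in hypothalamus.

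Vip, a transmitter of the suprachiasmatic nucleus, had the largest hypothalamic difference of the 10 genes in Per3 5/5 mice in the fit without a block, and did not pass the threshold. Its levels were 0.27, 0.46 and 0.96 in WT, -1.76, 0.08 and 0.61 in Per3 5/5 and -0.83, 0.07 and 0.38 in Per3 4/4. In each knock-in 6 of 8 mice lay below all WT mice. The Per3 5/5 mean was 0.36 on scan day 1 (0.00 to 0.61) and -0.69 on day 3 (-1.76 to 0.16), when WT had 0.39. The difference was -0.71 ± 0.25 in Per3 5/5 (adjusted p = 0.053) and -0.51 ± 0.25 in Per3 4/4 (adjusted p = 0.16). Vip passed in Per3 5/5 with median centring (adjusted p = 0.044) and with the replicate number as a block (adjusted p = 0.042), and in Per3 4/4 it was called by the methods' t-test alone among the tests run. Blocked for scan day, 0 of the 12 probes were called in hypothalamus of either knock-in, so Vip did not pass there.

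No member was called in hypothalamus of Per3 4/4 mice by limma, where 1 member probe (Nos1) had an unadjusted p under 0.05, as had 10182 of all 30735 probes. Hypothalamic Lhx6 was -1.84, -1.51 and -0.81 in WT, -1.86 to 0.22 with a mean of -0.92 in Per3 5/5 and -2.28, -1.52 and -0.33 in Per3 4/4. The groups overlapped widely, and the difference of Per3 5/5 from WT was 0.51 ± 0.27 (adjusted p = 0.18), or 1.01 ± 0.28 when blocked for scan day (adjusted p = 0.056). Pvalb was 0.50 ± 0.23 higher in Per3 5/5 (adjusted p = 0.12) and 0.38 ± 0.23 in Per3 4/4 (adjusted p = 0.24). Gad1, Gad2, Slc32a1, Sst and Cck each differed from WT by at most 0.29 in hypothalamus. Tac1 had a mean of 2.37 in WT, 2.07 in Per3 5/5 and 2.35 in Per3 4/4 and was not called. In Per3 5/5, 3 of 8 mice lay below all WT mice. The Per3 5/5 mean of Tac1 was 2.36 on scan day 1 and 1.77 on day 3, when WT had 2.09.

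**Figure D3:**
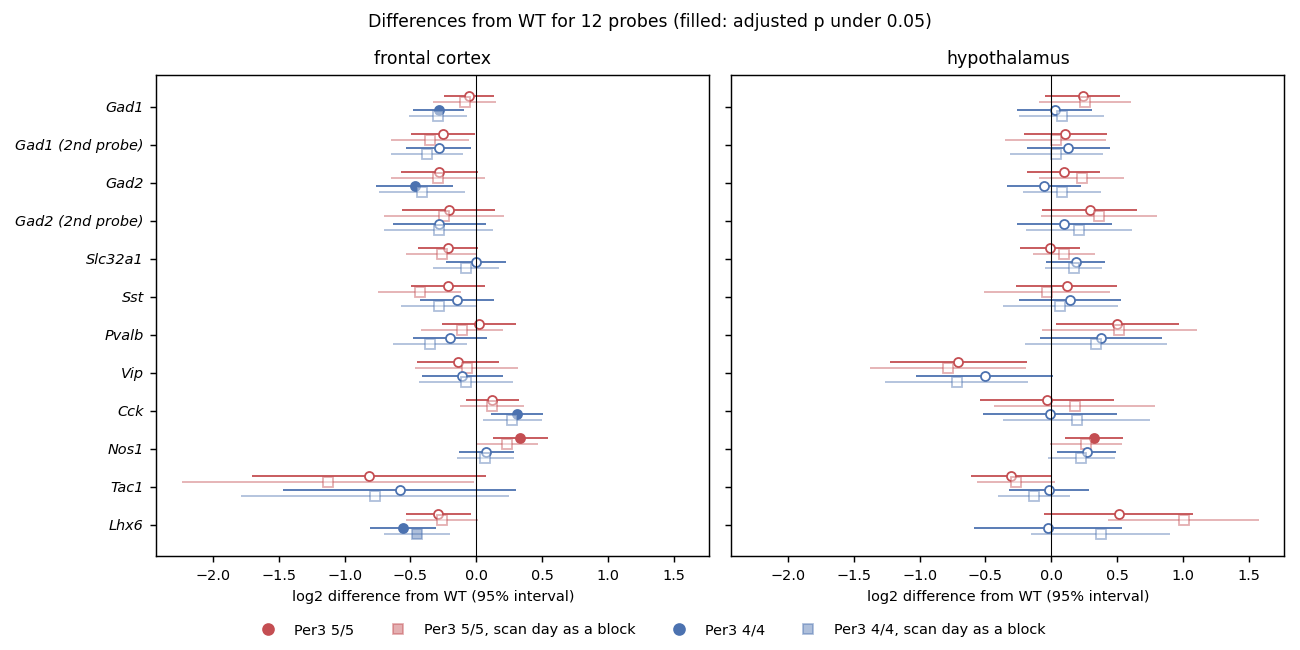
Difference of each knock-in from WT for the 12 probes in both tissues, as log2 difference with its 95% interval from limma, without a block (circles) and blocked for scan day (squares), filled where called. In frontal cortex Lhx6 (-0.56), Gad2 (-0.47), Gad1 (-0.29) and Cck (0.31) were called in Per3 4/4 against WT, and Nos1 was called in Per3 5/5 against WT in both tissues (0.34 and 0.33).

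Between the repeat lengths, Per3 5/5 against Per3 4/4, limma called 0 of 12 member probes in either tissue, and 0% of all probes. In frontal cortex 3 members had an unadjusted p under 0.05, all higher in Per3 5/5: Gad1 by 0.23 (95% interval 0.04 to 0.42), Lhx6 by 0.27 (0.02 to 0.52) and Nos1 by 0.26 (0.05 to 0.47). Over all probes 4656 of 29715 had an unadjusted p under 0.05, the smallest adjusted p of the members was 0.29, and blocked for scan day 0 members had an unadjusted p under 0.05. In hypothalamus 0 members and 4983 of 30735 probes had one, and the widest difference was that of Lhx6, 0.54 ± 0.27 (adjusted p = 0.32), or 0.63 when blocked for scan day (unadjusted p = 0.018, adjusted p = 0.41). The methods' t-test called 0 in either tissue. The methods also call probes by a rank product analysis, which was not run here, so this 0 is not the outcome of their full procedure.

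Whether a genotype difference differed between tissues was tested directly, and 0 member probes were called by limma in any of the 3 contrasts (0%, 0.00961% and 0.0032% of all probes for Per3 5/5 against Per3 4/4, Per3 5/5 against WT and Per3 4/4 against WT). Lhx6 had the smallest unadjusted p, with a Per3 5/5 effect 0.80 ± 0.26 higher in hypothalamus than in frontal cortex (unadjusted p = 0.0049, adjusted p = 0.73). Vip in Per3 5/5 (-0.56) and both Gad1 probes in Per3 4/4 (0.31 and 0.42) also had an unadjusted p under 0.05. Without WT replicate 3 the Gad1 values were 0.19 and 0.22, neither with an unadjusted p under 0.05, and the members' median for Per3 4/4 went from 0.35 to 0.17. The lower Gad1 of Per3 4/4 cortex was thus not shown to be particular to cortex.

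Over all 6 groups, the order of Nos1 levels was Per3 5/5, Per3 4/4 and WT in hypothalamus (-3.11, -3.17 and -3.44), then Per3 5/5, Per3 4/4 and WT in frontal cortex (-4.06, -4.32 and -4.39). The first step in hypothalamus and the step between Per3 4/4 and WT in frontal cortex were 0.29 and 0.42 of the SD between mice, and the step between the tissues was 2.7 SD. For Lhx6 the order was WT (0.38), Per3 5/5 (0.09) and Per3 4/4 (-0.17) in frontal cortex, then Per3 5/5 (-0.92), WT (-1.44) and Per3 4/4 (-1.46) in hypothalamus, where the last pair differed by 0.046 SD.

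The genes also varied together from mouse to mouse. Over the 24 mice, 90 pairs of members were compared (45 in each tissue), with permutation tests, and 7 cortical pairs and 1 hypothalamic pair passed an adjusted p under 0.05 by both Pearson and Spearman. Gad1 and Gad2 rose together in frontal cortex (Pearson r = 0.76, p = 2e-05, adjusted p = 0.0006; rho = 0.69, p = 0.00037, adjusted p = 0.0056) and in hypothalamus (r = 0.79, p = 1e-05, adjusted p = 0.00045; rho = 0.81, p = 1e-05, adjusted p = 0.00045), where 1e-05 is the smallest p the permutations can give. Without the 2 mice most extreme in Gad1, r was 0.71 and 0.76, and within genotype and scan day 0.69 and 0.79.

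Cortical Cck ran opposite to Gad2 (r = -0.85, p = 1e-05, adjusted p = 0.00045; rho = -0.86, p = 1e-05, adjusted p = 0.00045; r = -0.77 without the 2 most extreme mice and -0.79 within genotype and day). Cortical Tac1 rose with Gad2 (r = 0.81, p = 4e-05, adjusted p = 0.0009; rho = 0.70, p = 0.00028, adjusted p = 0.0050; r = 0.57 without the 2 most extreme mice and 0.93 within genotype and day). All these values share the array and the dissected sample. Between the tissues of a mouse, no gene was correlated at an adjusted p under 0.05 by Pearson. The highest was Slc32a1 (r = 0.55, permutation p = 0.0063, adjusted p = 0.063 over 10 genes; rho = 0.57, p = 0.0045, adjusted p = 0.045), with r = 0.34 without the 2 most extreme mice.

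Markers of striatum, a structure under the frontal cortex whose neurons are mostly GABAergic, moved with 4 of the cortical genes. All 9 markers, among them Drd1, Drd2, Adora2a and Penk, were measured, and their summed level in cortical samples was 27.5, 38.9 and 163 (lowest, median and highest) in WT, 20.1, 26.4 and 67.9 in Per3 5/5 and 20.2, 26.5 and 75.6 in Per3 4/4. The highest mouse was replicate 3 of WT. In 0 of the 9 markers did limma call a difference from WT in cortex, and their median difference was -0.46 in Per3 5/5 and -0.49 in Per3 4/4.

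Over the 24 cortical samples, Gad2 followed log2 of this sum (r = 0.90, permutation p = 1e-05, adjusted p = 0.00016; rho = 0.87, p = 1e-05, adjusted p = 0.00027, over 80 relations with marker sums), with r = 0.82 without the 2 most extreme samples and 0.93 within genotype and day. Tac1 did likewise (r = 0.89, p = 1e-05, adjusted p = 0.00016; rho = 0.72, p = 0.00016, adjusted p = 0.0026; r = 0.80 without the 2 samples and 0.93 within groups). Gad1 rose with it (r = 0.67, p = 0.0003, adjusted p = 0.0034; rho = 0.57, p = 0.0040, adjusted p = 0.040; r = 0.54 and 0.66 in the same order). Cck went the other way (r = -0.75, p = 1e-05, adjusted p = 0.00016; rho = -0.74, p = 3e-05, adjusted p = 0.0006; r = -0.57 and -0.78). Lhx6 (r = 0.46, p = 0.022, adjusted p = 0.10; rho = 0.53, p = 0.0087, adjusted p = 0.063) and Nos1 (r = 0.18, p = 0.40, adjusted p = 0.64; rho = 0.15, p = 0.50, adjusted p = 0.75) did not pass. The cortical sum of 5 basal forebrain markers, such as Chat, also moved with some of these genes. Tac1 passed by both measures (r = 0.84, adjusted p = 0.00027, rho = 0.58, adjusted p = 0.039). Gad2 (r = 0.72, adjusted p = 0.0059), Slc32a1 (r = 0.65, adjusted p = 0.035) and Cck (r = -0.62, adjusted p = 0.012) passed by Pearson alone. Both sums were highest in the same mouse of each genotype. The lower Gad1 and Gad2 and the higher Cck of Per3 4/4 cortex stood beside a lower median of the striatal sum (26.5, WT 38.9). Per3 5/5 cortex had nearly the same median (26.4), and Gad1, Gad2 and Cck were not called there. Their means in Per3 5/5 were 3.91, 3.08 and 7.61, beside 3.97, 3.36 and 7.49 in WT. The part of either sum in these levels was not tested.

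Without WT replicate 3, 2 of the 4 calls in Per3 4/4 cortex were left, Lhx6 (-0.51, adjusted p = 0.0086) and Gad2 (-0.37, adjusted p = 0.044), and Nos1 in Per3 5/5 had adjusted p = 0.068 in frontal cortex and 0.070 in hypothalamus. With the mouse of highest striatal sum left out of each genotype, Lhx6 (adjusted p = 0.014), Gad2 (0.029), Gad1 (0.046, and 0.048 for its second probe) and Cck (0.049) were called in Per3 4/4 cortex, and cortical Nos1 in Per3 5/5 was not (0.27, adjusted p = 0.11). When the fit was also blocked for scan day, 0 members were called, and Lhx6 had -0.41 (adjusted p = 0.052).

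**Figure D4:**
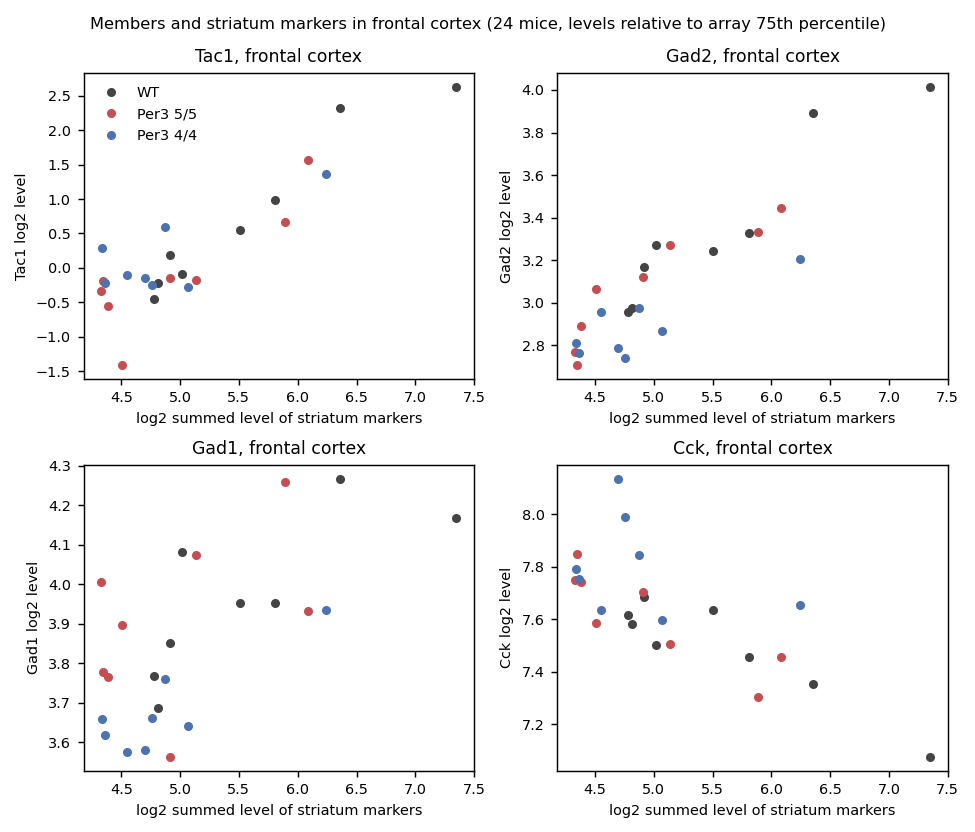
Cortical levels of members against the summed level of 9 striatal markers, 1 point for each of 24 mice, with log2 of the marker sum on the horizontal axis, the log2 level on the vertical axis and the genotypes in colour. Gad2 and Tac1 rise with the sum (r = 0.90 and 0.89) and Cck falls (r = -0.75).

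In hypothalamus, Lhx6 followed the sum of 5 basal forebrain markers (among them Chat, Slc5a7, Lhx8 and Gbx1; r = 0.82, permutation p = 1e-05, adjusted p = 0.00016; rho = 0.77, p = 1e-05, adjusted p = 0.00027; r = 0.70 without the 2 most extreme samples and 0.84 within genotype and day). The sum was 0.33, 0.44 and 0.58 in WT, 0.40, 0.82 and 1.98 in Per3 5/5 and 0.32, 0.58 and 1.74 in Per3 4/4, so the Per3 5/5 mice, in which Lhx6 was highest, also held most of these markers. Cck followed the sum of 5 thalamic markers (r = 0.89, p = 1e-05, adjusted p = 0.00016; rho = 0.91, p = 1e-05, adjusted p = 0.00027; r = 0.89 and 0.91 in the same order), which ran from 9.10 to 26.5 over the hypothalamic samples. The part of these markers in the levels of Lhx6 and Cck was not tested.

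**Figure D5:**
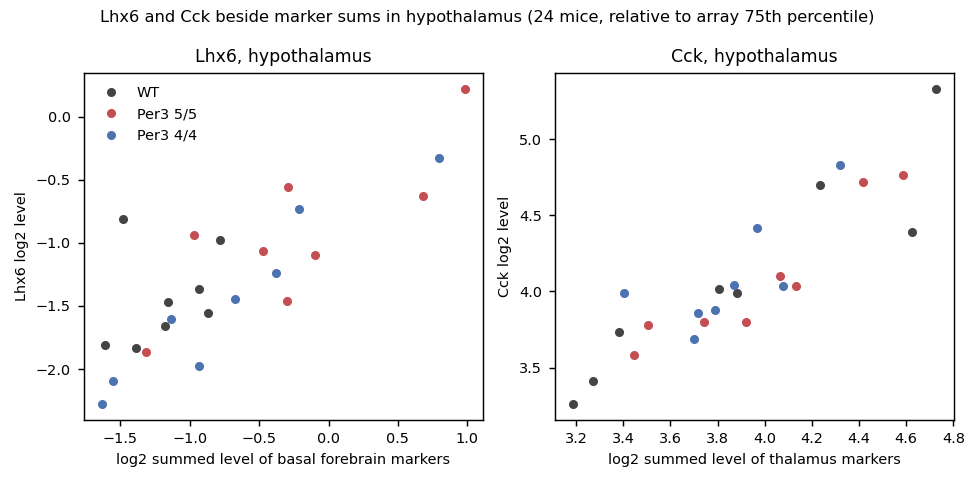
Hypothalamic Lhx6 against the summed basal forebrain markers and hypothalamic Cck against the summed thalamic markers, 1 point for each of 24 mice, with log2 of the marker sum on the horizontal axis and the log2 level on the vertical axis. Both genes rise with their sum (r = 0.82 and 0.89).

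Genes around the members were counted in lists, with 1 probe a gene and the calls of the same limma fits. Over all probes against WT, 8.44% were higher and 3.91% lower in Per3 5/5 cortex, and 13.4% and 9.14% in Per3 4/4 cortex. In hypothalamus 10.3% were higher and 8.55% lower in Per3 5/5, and 8.24% and 6.81% in Per3 4/4. These shares stand beside each count below, and the lists were not tested as sets. Of 8 genes of GABA synthesis, uptake and breakdown, 1 rose and 1 fell in Per3 4/4 cortex (the GABA transporter Slc6a11, 0.42, and the GABA transaminase Abat, -0.25), and neither passed when blocked for scan day (adjusted p = 0.10 and 0.17). The list's medians were -0.02 in Per3 5/5 cortex, 0.14 in Per3 4/4 cortex, 0.02 in Per3 5/5 hypothalamus and 0.06 in Per3 4/4 hypothalamus, beside 0.06, 0.02, 0.03 and 0.02 over all probes. With the tissue, 7 of the 8 were higher in WT hypothalamus and 1 lower, beside 31.8% and 27.7% of all probes.

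Among interneuron transcription factors, 0 of 15 rose and 2 fell in Per3 4/4 cortex, among them Nr2f2 (-0.40), known from cells of the caudal eminence, which did not pass when blocked for scan day (adjusted p = 0.34). Of 16 measured in hypothalamus, 4 rose and 2 fell in Per3 5/5, the largest being Lhx8 (1.64 ± 0.49, adjusted p = 0.023), which is also 1 of the basal forebrain markers above, and 0 rose and 2 fell in Per3 4/4, among them Dlx2 (-0.50). With the day block Lhx8 had adjusted p = 0.042 in Per3 5/5 and Dlx2 0.14 in Per3 4/4. The medians were 0.05 and -0.15 in Per3 5/5 and Per3 4/4 cortex and 0.18 and -0.02 in hypothalamus.

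Of the other subclass genes, 1 of 23 rose and 1 fell in Per3 5/5 cortex (the kainate receptor Grik3, 0.75, and Crhbp, which binds the corticotropin-releasing hormone, -0.51), and 1 rose in Per3 4/4 cortex (Calb2, 0.65). Of these Crhbp passed when blocked for scan day (adjusted p = 0.043), and Grik3 (0.28) and Calb2 (0.16) did not. In hypothalamus 6 of 24 rose and 1 fell in Per3 5/5 and 5 rose in Per3 4/4. Those that rose in both included the complexin Cplx1 (0.64 and 0.45), the synaptotagmin Syt2 (0.39 and 0.58) and the fast potassium channel Kcnc1 (0.46 and 0.52), and the list's medians were 0.09 and 0.14. Blocked for scan day, Cplx1 passed in Per3 5/5 (adjusted p = 0.038) and not in Per3 4/4 (0.089), and Syt2 (0.18 and 0.084) and Kcnc1 (0.12 and 0.14) passed in neither. Pvalb itself was not called there.

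Of the receptors of the member peptides, 1 of 9 rose in Per3 5/5 cortex, 3 of 9 in Per3 4/4 cortex and 2 of 10 in hypothalamus of each knock-in, and 0 fell. Over all probes 8.44% and 13.4% were called higher in cortex and 10.3% and 8.24% in hypothalamus, and nothing particular to the list is read from its counts. The list's medians were 0.21, 0.40, 0.11 and 0.33. The somatostatin receptor Sstr1 rose in cortex of both (0.56 and 0.58) and Sstr3 in Per3 4/4 cortex (0.61), and none of these passed when blocked for scan day (adjusted p = 0.50 and 0.23 for Sstr1 and 0.11 for Sstr3). Adcyap1r1, the receptor of PACAP, a relative of VIP, rose in Per3 4/4 cortex (0.43, adjusted p = 0.0034) and in hypothalamus of both (0.40 and 0.35). Tacr1, the receptor for the Tac1 peptide that nNOS cells of cortex carry, rose in hypothalamus of both (0.46 and 0.31). Adcyap1r1 passed in all 3 with the day block (adjusted p = 0.030, 0.028 and 0.049), and Tacr1 passed in Per3 5/5 (0.034) and not in Per3 4/4 (0.12).

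Among genes of nitric oxide and cGMP signalling, 2 of 20 rose and 1 fell in Per3 5/5 cortex and 4 rose and 3 fell in Per3 4/4 cortex. Dlg4, whose product PSD-95 holds nNOS at the synapse, rose in cortex (0.52 and 0.70) and hypothalamus (0.64 and 0.45) of both knock-ins, and the phosphodiesterase Pde2a rose in cortex (0.33 and 0.40). Blocked for scan day both passed in Per3 4/4 cortex (Dlg4, adjusted p = 0.023, and Pde2a, 0.043), while Dlg4 did not in Per3 5/5 cortex (0.14) or in hypothalamus (0.059 and 0.14), nor Pde2a in Per3 5/5 cortex (0.27). The subunits of the nitric oxide receptor guanylate cyclase fell in cortex, Gucy1b1 in both (-0.38 and -0.42) and Gucy1a1 in Per3 4/4 (-0.49). With the day block Gucy1b1 passed in both (adjusted p = 0.038 and 0.011) and Gucy1a1 did not (0.15). In hypothalamus 3 rose and 3 fell in each, and Gch1, which starts the synthesis of the nNOS cofactor tetrahydrobiopterin, fell in both (-0.49 and -0.36), though in Per3 4/4 it did not pass when blocked for scan day (adjusted p = 0.036 and 0.063). The medians were 0.03, 0.12, 0.00 and 0.05. When Per3 5/5 was set against Per3 4/4, limma called 0 genes of these lists. With median centring, receptors of the member peptides had 0 rises in Per3 5/5 cortex and 2 in Per3 4/4 cortex.

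The genes most like Nos1 over the 24 samples of a tissue, by Pearson r among all named genes above background on every array and given with no test, were Ppp1r13l, A930018P22Rik and Maz in frontal cortex (r = 0.78, 0.78 and 0.76) and Cygb, Ppp1r16b and Rtbdn in hypothalamus (0.87, 0.86 and 0.86). With scan day means removed these were 0.67, 0.67 and 0.74, and 0.85, 0.87 and 0.83. Those most like Gad1 were Dlx5, Gpr12 and Sephs1 in frontal cortex (0.84, 0.84 and 0.83) and the second probe of Gad2, Lmln and Ids in hypothalamus (0.92, 0.90 and 0.89). All share the array and the sample with the gene they were compared to.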

How the data were processed

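Total RNA from frontal cortex and hypothalamus was labelled with Cy3 and hybridised to Agilent 4x44K whole mouse genome arrays. Scanner output was deposited as Feature Extraction (10.7.1.1) files, in which the processed signal intensity is background-subtracted by the software. The authors also deposited a table per tissue of log2 values, shifted to the 75th percentile and centred on each probe's median over the arrays of that tissue, and 29.1% of its cortical values are blank. Their genome build (mm9 in the submitters' notes) was not used, and RefSeq accessions gave symbols to 27668 of 41174 probes.

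Here each log2 intensity was set relative to the array's own 75th percentile, spots marked as outliers were left out, spots of a probe were averaged, and probes well above background on at least 6 of the 8 arrays of a group were tested (29715 in frontal cortex, 30735 in hypothalamus). Genotypes were compared with limma 3.58.1 (R 4.3.3), 24 arrays of a tissue in 1 fit, and tissues with the mouse as a block, since both come from 1 animal (their deviations correlated at 0.109 to 0.689). Calls are Benjamini-Hochberg adjusted p under 0.05 over all tested probes, two-sided. Correlations used 100000 permutations (scipy 1.17.1). The fitting step was tested on simulated data. Array number limits the precision.

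All members with all probes are named. From each list at most the 4 genes of largest difference from WT among those called are named in each tissue, and the 3 genes most like Nos1 and Gad1. Alternatives were normexp with an offset of 50, median centring, quantile normalization, no dim-probe filter, outlier spots kept, the authors' processed values, scan day, slide or replicate number as a block, 1 scan day alone and the methods' t-test. Leaving out WT replicate 3, or the mouse of each genotype with most striatal marker signal, was chosen after seeing the data. The members and lists were chosen with earlier results of these data known. Probe sequences were not used here, and the methods' rank product analysis was not run. Values of some genes of the related lists are not reported here.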

Additional observations from a re-analysis of the deposited data

Results flagged for a closer look

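Of 72 groups of 8 mice (12 probes in 6 groups), 10 had a lowest or highest mouse that stood apart from the rest by more than Dixon's critical ratio allows, where chance gives about 1 in 20 groups. They came from 5 mice. WT replicate 3 gave 5 of them: in hypothalamus the lowest Gad1 (3.12, second probe 2.51), Gad2 (second probe 3.10) and Sst (3.13), and in frontal cortex the highest Slc32a1 (5.81). The same mouse had the highest striatal marker sum in cortex, 163. Sst was lowest at 4.18 in Per3 4/4 replicate 5 and at 4.02 in Per3 5/5 replicate 8, both in frontal cortex. Per3 4/4 replicate 2 gave the highest second-probe Gad1 in frontal cortex (3.91) and the lowest Vip in hypothalamus (-0.83). The second Gad1 probe was lowest in hypothalamus of Per3 5/5 replicate 7 (3.13). What sets these mice apart was not tested.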

How the results depend on the processing

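Called differences between tissues were steady: in 234 values recomputed for 28 called differences the direction was kept in all 234 and the call in 228, the exceptions being Sst and Tac1 in WT and Lhx6 in Per3 4/4. For the 6 called genotype differences, 81 of 82 values kept the direction and 44 the call, and 0 of the 6 was called under every alternative. The reversal was Cck in Per3 4/4 cortex under quantile normalization (-0.00972). Against 4 calls in Per3 4/4 cortex, normexp gave 6, the mice of highest striatal sum left out 5, median centring 3, quantile normalization 3, 1 scan day alone gave 0, scan day as a block 1, slide as a random block 1, the mice of highest striatal sum left out with scan day as a block 0, and the fit without WT replicate 3 gave 2. The 1 call in Per3 5/5 cortex became 3 with normexp and 0 with quantile normalization, 1 scan day alone, scan day as a block, slide as a random block, the methods' t-test, without WT replicate 3, and without the mice of highest striatal sum (with or without the day block). In Per3 5/5 hypothalamus it became 0 with normexp, quantile normalization, no dim-probe filter, 1 scan day alone, scan day as a block, slide as a random block, the methods' t-test and without WT replicate 3. In Per3 4/4 hypothalamus the methods' t-test gave 1 call (Vip) against 0. With median centring the single call in Per3 5/5 was a different gene: Lhx6 (-0.40, adjusted p = 0.036) in cortex and Vip (-0.79, adjusted p = 0.044) in hypothalamus. The causes were not tested.

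Replicate numbers are shared by the genotypes, but the deviations of same-numbered mice correlated at -0.42 to 0.52, not above 0.1 in every pair, so they were not taken as pairs, although replicates 1 to 4 of Per3 5/5 and of Per3 4/4 also shared a slide and scan day 1. The replicate block gave 0 calls in Per3 5/5 cortex against 1, where Nos1 had 0.34 (adjusted p = 0.056). In Per3 5/5 hypothalamus it called Vip and not Nos1 (adjusted p = 0.054). Median centring moved the share of all probes called higher and lower in Per3 5/5 cortex from 8.44% and 3.91% to 2.14% and 9.38%, in Per3 4/4 cortex from 13.4% and 9.14% to 6.15% and 11.3%, in Per3 5/5 hypothalamus from 10.3% and 8.55% to 5.59% and 12.5%, and in Per3 4/4 hypothalamus from 8.24% and 6.81% to 4.01% and 8.88%. The median of all probes against WT was 0.15 and 0.22 in cortex of Per3 5/5 and Per3 4/4 with normexp. The authors' table was not run between tissues, since it is centred within each. The dim Nos1 probe lost its call in Per3 5/5 hypothalamus with normexp (0.23, adjusted p = 0.31) and with no dim-probe filter (adjusted p = 0.054), and kept it in Per3 5/5 cortex with both.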
